A study of Mus musculus with 20 samples.

Results

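The expression of 10 genes that encode regulators of haematopoietic stem cells was described in sorted mouse bone-marrow cells: Hlf, Mecom, Prdm16, Mycn, Mllt3, Erg, Fli1, Runx1, Lyl1 and Lmo2. The genes were chosen by name, as the entries of the deposited table whose Ensembl identifier carries one of these symbols, and they are 10 of 45706 gene entries. Earlier results of these data were known at that choice. Counts of calls among the 10 genes are therefore descriptions and not a test of the set. RNA was sequenced from 20 libraries of mice on the C57BL/6 background aged 8 weeks, 11 labelled Hopx wild type (WT) and 9 labelled Hopx knockout (KO), with no treatment given in the labels. Cells had been sorted as long-term haematopoietic stem cells (LT-HSC) or as the multipotent progenitor types MPP2 and MPP3, giving 4 WT LT-HSC, 3 WT MPP2, 4 WT MPP3 and 3 KO libraries of each population. The sources used here do not say how the knockout allele was made or which antigens set the sorting gates.

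LT-HSC sustain blood formation for life, while MPP2 and MPP3 lie downstream of them and are known to lean toward the megakaryocyte and red-cell lineages and toward the granulocyte and macrophage lineages, respectively. Hlf, Mecom, Prdm16, Mycn and Mllt3 are known for roles in keeping stem cells quiescent or self-renewing. Erg, Fli1, Runx1, Lyl1 and Lmo2, together with Tal1 and Gata2, form the so-called heptad, a set of factors that bind side by side at regulatory elements of blood stem and progenitor cells.

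Each value is a normalized count, the number of reads in a gene divided by 1 size factor per library. A difference is the difference of group means of log2(normalized count + 1), and it was called where its Benjamini-Hochberg adjusted p from limma, over 17160 genes, was under 0.05. The added 1 understates the change of genes with few reads. The population differences below are the mean of the WT and the KO difference unless a genotype is named, and the comparisons share libraries with one another. The labels name no animal, so libraries of different populations may come from 1 animal, and p-values reflect the variation among these libraries alone, which may in part be technical.

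Reads in genes numbered 11163345 to 15189909 per library, and all 10 genes passed the filter on low values. Hopx, the targeted gene, was read in 10 of 11 libraries labelled WT and 0 of 9 labelled KO; the library labelled WT LT-HSC replicate 4 had 0 reads of Hopx and is kept under its label. Among genes of known antigens, Procr ran from 277 to 1267 in LT-HSC and from 0 to 319 in the progenitors. Cd48 reached 476 in LT-HSC and began at 1626 in MPP2 and 4928 in MPP3, and Slamf1 did not pass 32.5 in MPP3. Flt3 ran from 159 to 863 in LT-HSC, from 94.4 to 4080 in MPP2 and from 6518 to 13242 in MPP3. Cd34 ran from 1777 to 6067, from 918 to 12660 and from 15282 to 20986 in the same order. Kit ran from 1656 to 4781 over all groups. The summed level of 7 lymphoid genes was 184992 in WT MPP2 replicate 3 and at most 656 in the other MPP2 libraries. It ran from 4871 to 25472 in MPP3. In LT-HSC it was 1861 in KO LT-HSC replicate 1 and at most 59.4 in the others. The summed level of 6 erythroid genes ran from 3615 to 73313 in MPP2 and from 196 to 24694 in MPP3, and in LT-HSC it was 22464 in KO LT-HSC replicate 2 and at most 3931 in the others. That of 6 mature neutrophil genes was 24824 in KO LT-HSC replicate 1, 16733 in WT LT-HSC replicate 2, 7923 in WT MPP2 replicate 2 and 24381 and 18752 in WT MPP3 replicates 2 and 3, and at most 697 in every other library. That of 5 granulocyte precursor genes ran from 18145 to 141928 in MPP3 and from 1018 to 3088 in LT-HSC. In MPP2 it was 34585 and 68155 in WT MPP2 replicates 1 and 3, 23505 in KO MPP2 replicate 2 and at most 2628 in the others. The part of cells of these types in the population differences was not tested. Library numbers in the titles fell into 4 runs, 52 to 54, 81 to 88, 101 to 106 and 115 to 120, whose meaning the labels do not give. The run 52 to 54 held 3 WT libraries, all female by Xist and Y-linked transcripts, and no KO library. All other WT libraries were male, so within WT this run and sex cannot be told apart. In the runs 81 to 88 and 101 to 106 all WT libraries were male and all KO libraries female.

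**Figure D1:**
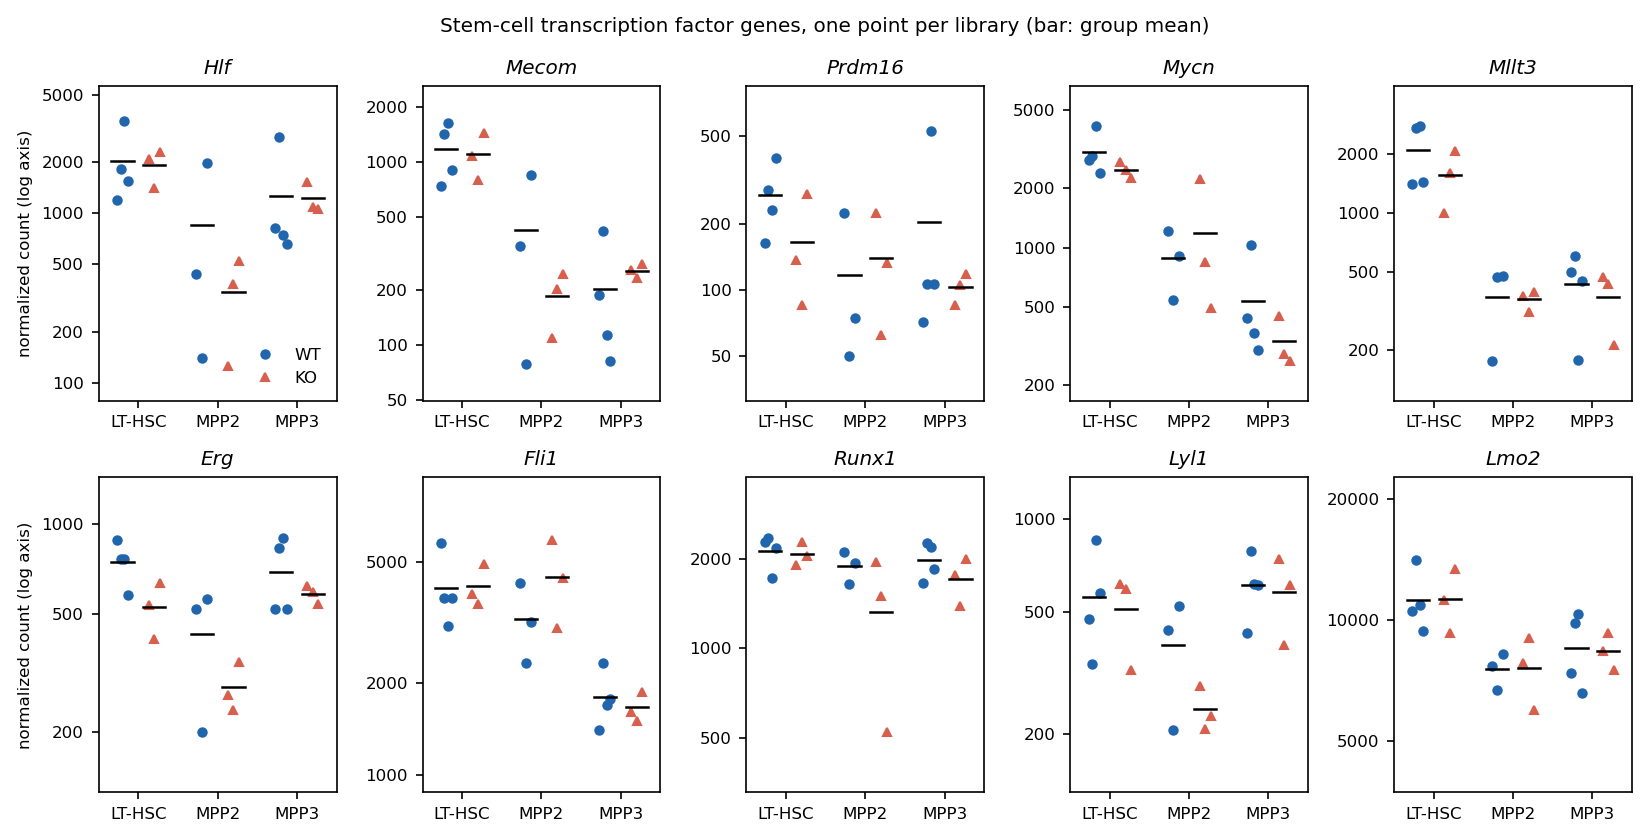
Normalized counts of the 10 genes on a log axis, 1 panel per gene and 1 point per library (circles WT, triangles KO; the bar is the group mean). Mycn, Mllt3 and Mecom were higher in LT-HSC than in MPP3 in every library, Fli1 was lower in MPP3 than in every LT-HSC and MPP2 library, and Lmo2 and Runx1 moved within a narrow band apart from 1 KO MPP2 library at 523 for Runx1.

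LT-HSC carried more of several of these transcripts than the progenitors did, and MPP3 minus MPP2 tests where the progenitors differed in this. Of the 10 genes, 6 were called lower in MPP2 than in LT-HSC (Hlf, Mecom, Mycn, Mllt3, Erg and Lmo2) and 0 higher, where 7.32% of all genes tested were called, 5.08% lower and 2.24% higher. In MPP3 against LT-HSC, 4 were called lower (Mecom, Mycn, Mllt3 and Fli1) and 0 higher, against 7.4% of all genes, 4.18% lower and 3.22% higher. Between the progenitors, 4 were called, with Erg and Lyl1 higher and Mycn and Fli1 lower in MPP3, against 6.88% of all genes, 2.24% lower and 4.64% higher. The median difference of the 10 genes was -0.88 in MPP2 minus LT-HSC and -0.71 in MPP3 minus LT-HSC, where the median of all genes tested was -0.11 and -0.00044. In bulk libraries such as these, fewer cells with a transcript and less of it per cell cannot be told apart.

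Bases from the window upstream of a start site are shown for 4 genes called lower in a progenitor and for Lyl1. The latter was called between the progenitors, and the sequences set their promoters side by side. Sequences are from the RefSeq promoter table (GRCm38.p6), which held 8 of the 10 genes, without Fli1 and Lmo2. Only bases that lie in no annotated exon are printed, 5′ to 3′ on the gene's strand. Capitals mark matches on either strand to GGAA (the core of ETS factor sites), CANNTG (the E-box bound by basic helix-loop-helix factors), GATAA (GATA factors) and TGNGGT (RUNX factors), and no base lay in matches of 2 motifs.
Hlf, chr11:90390918-90391167, minus strand, 250 bases: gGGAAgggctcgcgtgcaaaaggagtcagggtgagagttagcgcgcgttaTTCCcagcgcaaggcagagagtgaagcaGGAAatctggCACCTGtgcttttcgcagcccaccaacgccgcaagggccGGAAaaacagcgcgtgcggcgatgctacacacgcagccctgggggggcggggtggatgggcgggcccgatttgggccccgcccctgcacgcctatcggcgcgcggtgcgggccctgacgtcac
Mecom, chr3:30509823-30510009, minus strand, 187 bases: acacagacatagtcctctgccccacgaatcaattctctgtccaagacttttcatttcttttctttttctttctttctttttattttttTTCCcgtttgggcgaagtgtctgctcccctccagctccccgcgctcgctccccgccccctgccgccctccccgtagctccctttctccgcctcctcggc
Mycn, chr12:12941915-12942086, minus strand, 172 bases: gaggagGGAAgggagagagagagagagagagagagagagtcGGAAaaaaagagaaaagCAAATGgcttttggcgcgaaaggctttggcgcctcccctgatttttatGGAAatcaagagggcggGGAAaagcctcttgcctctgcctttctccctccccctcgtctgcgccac
Mllt3, chr4:88033544-88033657, minus strand, 114 bases: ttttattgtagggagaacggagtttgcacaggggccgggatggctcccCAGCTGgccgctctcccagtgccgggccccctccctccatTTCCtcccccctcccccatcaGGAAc
Lyl1, chr8:84701207-84701456, plus strand, 250 bases: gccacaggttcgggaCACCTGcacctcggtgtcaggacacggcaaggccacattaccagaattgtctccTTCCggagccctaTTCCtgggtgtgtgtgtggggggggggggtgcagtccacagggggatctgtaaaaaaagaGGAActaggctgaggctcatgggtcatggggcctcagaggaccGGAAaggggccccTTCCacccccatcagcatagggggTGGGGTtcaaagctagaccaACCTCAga
Over the full 250 bases upstream, GGAA occurred 4 times at Hlf, 4 at Mycn, 3 at Mllt3, 1 time at Mecom and 5 times at Lyl1, and CANNTG 1 time at each of them. Mecom had 1 GATAA and Lyl1 had 2 TGNGGT, and the other windows shown held neither. Of 32851 promoter windows of the same length, 93.4% held GGAA, 66.2% CANNTG, 22.6% GATAA and 40.1% TGNGGT, so that the GGAA and CANNTG matches are common ones. Some of these matches lie in exonic bases that are not printed. The windows of Mecom and Mllt3 are each 1 of 2 start sites listed for the gene. For Mecom, Mycn and Mllt3 the printed stretch does not reach the start site, which lies at 30509759, 12941836 and 88033407, respectively. For Hlf and for the Mllt3 window shown, the bases that follow the start site were not found in an annotated transcript of the gene. A match is a description of the letters and not a bound site.

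Mycn, a MYC family transcription factor that drives growth and division, was highest in LT-HSC, lower in MPP2 and lowest in MPP3. Mycn (chromosome 12, 12936093 to 12941914, minus strand, GRCm38, as are all gene positions here) read 2773, 2905, 4134 and 2386 in WT LT-HSC and 2715, 2485 and 2252 in KO LT-HSC. Its values were 1216, 541 and 911 in WT MPP2 and 2235, 849.9 and 494 in KO MPP2. They were 442, 1033, 368 and 303 in WT MPP3 and 451, 288 and 267 in KO MPP3. Every LT-HSC library lay above every progenitor library, with KO MPP2 replicate 1 nearest to the stem-cell range, and the MPP2 and MPP3 ranges overlapped. The Mycn difference in MPP2 minus LT-HSC was -1.58 (SE 0.33, limma adjusted p = 0.00863). That in MPP3 minus LT-HSC was -2.79 (SE 0.32, limma adjusted p = 1.77e-05), a 6.89-fold lower level, and it was called in WT alone (-2.65) and in KO alone (-2.92). In MPP3 minus MPP2 it was -1.20 (SE 0.33, limma adjusted p = 0.0334), which 7 of the 20 settings that left out 1 library each took past the threshold (limma adjusted p up to 0.0942 over all settings), those without WT MPP2 replicate 1, WT MPP3 replicates 1, 3 and 4, KO MPP2 replicate 1 and KO MPP3 replicates 2 and 3.

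Mllt3, a reader of acylated histones in the super elongation complex, stood high in LT-HSC and low in both progenitors. Mllt3 (chromosome 4, 87769925 to 88033364, minus strand) read 1406, 2713, 2777 and 1442 in WT LT-HSC and 1002, 1604 and 2079 in KO LT-HSC. It read 176, 470.3 and 476 in WT MPP2 and 378, 313 and 394 in KO MPP2. It stood at 502, 603, 177 and 447 in WT MPP3 and 471, 432 and 211 in KO MPP3. All 13 progenitor libraries were below all 7 LT-HSC libraries. The Mllt3 difference was -2.29 (SE 0.33, limma adjusted p = 0.000722) in MPP2 minus LT-HSC. It was -2.21 (SE 0.32, limma adjusted p = 0.000178) in MPP3 minus LT-HSC. Between the progenitors it was 0.09 (SE 0.33, limma adjusted p = 0.922), with a 95% interval of -0.61 to 0.78. Mllt3 was also called within each genotype: in WT it was -2.54 in MPP2 and -2.32 in MPP3, and in KO it was -2.09 in MPP3 and -2.05 in MPP2, the last with a limma adjusted p of 0.0449. The KO MPP2 call was lost in 16 of 29 settings, and its limma adjusted p was 0.0573 when the library labelled WT LT-HSC replicate 4 was left out.

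Mecom, the zinc-finger factor EVI1 and its PR-domain form, fell in both progenitors. Mecom (chromosome 3, 29951296 to 30548008, minus strand) read 738, 1433, 1637 and 906 in WT LT-HSC and 1086, 799 and 1455 in KO LT-HSC. It read 347, 79.1 and 851 in WT MPP2 and 109.5, 203 and 244 in KO MPP2. It read 189, 423, 114 and 82.1 in WT MPP3 and 257, 232 and 277 in KO MPP3. All 7 MPP3 libraries lay below the LT-HSC range, and so did 5 of 6 MPP2 libraries, the exception being WT MPP2 replicate 3. The Mecom difference was -2.29 (SE 0.46, limma adjusted p = 0.00703) in MPP2 minus LT-HSC. In MPP3 minus LT-HSC it was -2.42 (SE 0.44, limma adjusted p = 0.00173), a 5.33-fold lower level. The antisense gene Mecomos shares 81 bases of exon with Mecom, and since no source used here says whether reads were counted by strand, reads there cannot be told apart.

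Hlf, a PAR bZIP factor whose expression marks stem cells, was low in MPP2 and in between in MPP3. Hlf (chromosome 11, 90336536 to 90390895, minus strand) read 1199.8, 1837, 3538 and 1557 in WT LT-HSC and 2090.0, 1414 and 2299 in KO LT-HSC. It read 439, 140.1 and 1979 in WT MPP2 and 125, 383 and 526 in KO MPP2. It read 823, 2833, 740.4 and 662 in WT MPP3 and 1535, 1092 and 1062 in KO MPP3. The highest library of each population was in each case the one from the run 52 to 54, WT LT-HSC replicate 3, WT MPP2 replicate 3 and WT MPP3 replicate 2. These were also the only female WT libraries. Of the MPP2 libraries, 5 of 6 lay below the LT-HSC range. The Hlf difference was -2.30 (SE 0.51, limma adjusted p = 0.0119) in MPP2 minus LT-HSC, a 4.92-fold lower level, and its adjusted p lay between 0.00085 and 0.0487 over the 29 alternatives, fitted with limma, edgeR or DESeq2. In MPP3 minus LT-HSC it was -0.75 (SE 0.49, limma adjusted p = 0.498), with a 95% interval of -1.79 to 0.29. In MPP3 minus MPP2 it was 1.55 (SE 0.51, limma adjusted p = 0.0796) and was not called on all libraries, but it passed with the runs as a covariate, with sex as a covariate, without WT MPP2 replicate 3, without the run 52 to 54 and without both WT LT-HSC replicate 4 and WT MPP2 replicate 3. WT MPP2 replicate 3 was also the library with the highest lymphoid sum, of which Ighm made up 176989. Among MPP2 libraries it had the highest granulocyte precursor sum (68155) and the lowest sum of 5 megakaryocyte genes (2999). Its summed level of Cd48, Cd34, Flt3 and Kit was 27773, against at most 8499 in the other MPP2 libraries. The part of these traits in its Hlf and Mecom levels was not tested.

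Prdm16, a zinc-finger regulator related to Mecom, had the lowest mean count of the 10 over all libraries, though not in WT MPP3, and did not pass in any comparison of populations. Prdm16 (chromosome 4, 154316125 to 154636873, minus strand) ran from 85.2 through a median of 230.3 to 399 in the 7 LT-HSC libraries. It ran from 50.0 through 104 to 225 in the 6 MPP2 libraries, and from 71.6 through 106 to 528 in the 7 MPP3 libraries. The 3 ranges overlapped, and the MPP3 maximum came from WT MPP3 replicate 3 alone, the other MPP3 libraries reaching at most 118. The Prdm16 difference was -0.84 (SE 0.49, limma adjusted p = 0.32) in MPP2 minus LT-HSC. It was -0.67 (SE 0.47, limma adjusted p = 0.536) in MPP3 minus LT-HSC. Per kilobase of exon, the ratio of Mecom to Prdm16 ran from 1.70 to 7.04 in LT-HSC (median 3.98), from 0.365 to 8.57 in MPP2 (median 1.28) and from 0.162 to 2.97 in MPP3 (median 1.76), so the ranges overlapped. The protein-coding gene B230104I21Rik shares 109 exonic bases with Prdm16 on the other strand, where reads likewise cannot be told apart.

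The related ETS genes Erg and Fli1, which encode proteins with closely related DNA-binding domains, split the progenitors in opposite directions. Erg (chromosome 16, 95359169 to 95586593, minus strand) read 889, 766, 763 and 579 in WT LT-HSC and 537, 413 and 634 in KO LT-HSC. It read 520.1, 200.1 and 560.0 in WT MPP2 and 267, 237 and 345 in KO MPP2. It read 520.5, 836, 899.9 and 519 in WT MPP3 and 622, 594 and 538 in KO MPP3. The LT-HSC and MPP3 ranges overlapped widely, and MPP2 was lower, with 4 of 6 libraries below every MPP3 library and below every LT-HSC library. Erg was -0.91 (SE 0.24, limma adjusted p = 0.0259) in MPP2 minus LT-HSC and 0.93 (SE 0.24, limma adjusted p = 0.0245) in MPP3 minus MPP2. In MPP3 minus LT-HSC the Erg difference was 0.01 (SE 0.23, limma adjusted p = 0.989), with a 95% interval of -0.47 to 0.49. The first call was lost without WT MPP2 replicate 2, KO LT-HSC replicate 1 or KO LT-HSC replicate 3, and the second without WT MPP2 replicate 2, KO MPP3 replicate 1 or KO MPP3 replicate 2; limma adjusted p then reached at most 0.0656 and 0.0569.

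Fli1 (chromosome 9, 32422204 to 32542861, minus strand), a factor needed for megakaryocyte and platelet genes, was called lower in MPP3 and was not called in MPP2 against LT-HSC. Fli1 read 5774, 3813, 3077 and 3823 in WT LT-HSC and 3926, 3643 and 4928 in KO LT-HSC. It read 4277, 2339.7 and 3167 in WT MPP2 and 5914, 3034 and 4442 in KO MPP2. It read 1404, 2338, 1704 and 1774 in WT MPP3 and 1614, 1508 and 1879.8 in KO MPP3. All 7 MPP3 libraries lay below all LT-HSC and all MPP2 libraries, though WT MPP3 replicate 2 at 2338 and WT MPP2 replicate 2 at 2339.7 were next to each other. Fli1 was -1.25 (SE 0.18, limma adjusted p = 0.000176) in MPP3 minus LT-HSC, a 2.37-fold lower level, and -1.10 (SE 0.19, limma adjusted p = 0.00176) in MPP3 minus MPP2. In MPP2 minus LT-HSC it was -0.14 (SE 0.19, limma adjusted p = 0.698), with a 95% interval of -0.53 to 0.25. Fli1 was called in MPP3 minus LT-HSC within WT, at -1.18 (SE 0.23, limma adjusted p = 0.0061), and within KO, at -1.31 (SE 0.27, limma adjusted p = 0.0137). Both MPP3 calls of the genotype mean held in all 29 alternatives. The summed level of 5 megakaryocyte genes (Pf4, Gp9, Gp1ba, Itga2b and Ppbp, all detected in every group) ran from 426 to 2052 in MPP3, from 3134 to 33918 in LT-HSC and from 2999 to 68393 in MPP2, and its part in the Fli1 levels was not tested.

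Per kilobase of exon, Fli1 exceeded Erg in every library, by a ratio that separated MPP3 from the other populations. The ratio ran from 4.01 to 8.77 in LT-HSC (median 6.56), from 5.62 to 22.05 in MPP2 (median 12.2) and from 1.88 to 3.47 in MPP3 (median 2.68). All 7 MPP3 libraries lay below the lowest LT-HSC library, and the LT-HSC and MPP2 ranges overlapped. The lowest MPP2 ratio was that of WT MPP2 replicate 3. In LT-HSC and in MPP2 the 3 KO libraries each lay above all WT libraries of their population, while in MPP3 the genotypes overlapped. This was seen after the values were known and was not tested. Of single genes, 5% separated by genotype in LT-HSC and 5.93% in MPP2, and the share over ratios of gene pairs was not computed. Fli1 and Erg are also active in endothelium, and the summed level of 7 endothelial genes ran from 124 to 1239 over all libraries. Of these, Cdh5 had 0 reads in all 9 KO libraries and at most 10.6 normalized counts in a WT library. Group means ran from 195 to 480 for Emcn and from 21.3 to 170 for Plvap. Kdr and Sox18 averaged 109 and 139 in WT LT-HSC, and group means of Flt4 and Stab2 reached at most 21.5 and 11.1. The part of such cells in the ratio was not tested.

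**Figure D2:**
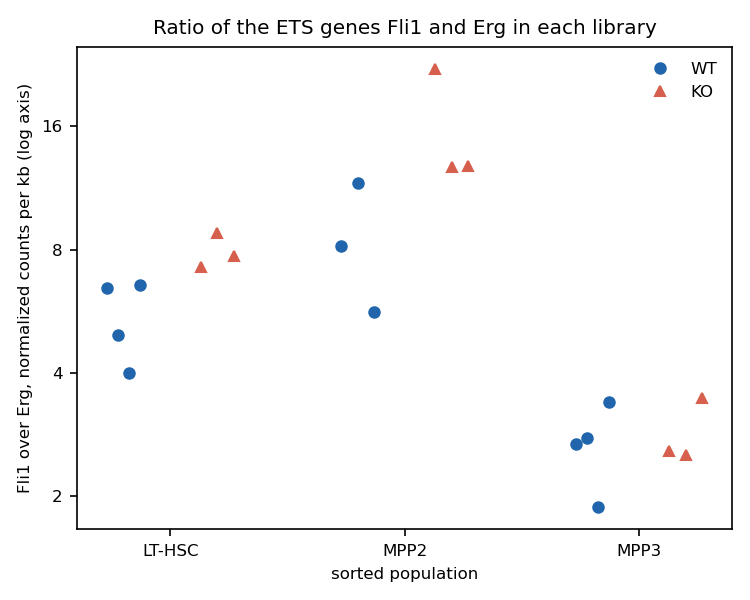
Ratio of Fli1 to Erg in normalized counts per kilobase of exon, on a log axis, for each library of the 3 sorted populations (circles WT, triangles KO). The MPP3 libraries lie between 1.88 and 3.47, below all LT-HSC libraries (4.01 to 8.77) and all MPP2 libraries (5.62 to 22.05).

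Runx1, the DNA-binding subunit of core-binding factor, was called in no comparison of populations. Runx1 (chromosome 16, 92601466 to 92826149, minus strand) ran from 1722 through a median of 2169 to 2347 in LT-HSC, from 523 through 1792 to 2102 in MPP2 and from 1384 through 1845 to 2255 in MPP3. The ranges overlapped, and the low end of MPP2 was KO MPP2 replicate 3 alone, since the next lowest MPP2 library read 1493. The Runx1 difference was -0.50 (SE 0.22, limma adjusted p = 0.184) in MPP2 minus LT-HSC, with a 95% interval of -0.97 to -0.04, and it passed without KO MPP2 replicate 1. It was -0.19 (SE 0.21, limma adjusted p = 0.747) in MPP3 minus LT-HSC and 0.31 (SE 0.22, limma adjusted p = 0.477) in MPP3 minus MPP2. The antisense gene Gm26626 shares 106 exonic bases with Runx1, so reads there cannot be told apart.

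Lyl1, a basic helix-loop-helix partner of LMO2, had its lowest levels in MPP2. Lyl1 (chromosome 8, 84701457 to 84704715, plus strand) read 474, 337, 855 and 574 in WT LT-HSC and 615, 593 and 323 in KO LT-HSC. It read 437, 206 and 521 in WT MPP2 and 286, 208 and 228 in KO MPP2. It read 428, 787, 617 and 609.6 in WT MPP3 and 744, 388 and 611 in KO MPP3. Of the 7 MPP3 libraries, 5 lay above the MPP2 range, and the LT-HSC range covered most of both. The Lyl1 difference in MPP3 minus MPP2 was 0.98 (SE 0.27, limma adjusted p = 0.0375), a call that was lost in 10 of 29 alternatives (adjusted p up to 0.109): with no expression filter, and without each of WT MPP2 replicates 1 and 2, KO MPP2 replicates 2 and 3, WT MPP3 replicates 2, 3 and 4, and KO MPP3 replicates 1 and 3. In MPP2 minus LT-HSC it was -0.79 (SE 0.27, limma adjusted p = 0.0847), and it passed there with DESeq2, with the runs or sex as a covariate and without WT MPP2 replicate 3. In MPP3 minus LT-HSC it was 0.18 (SE 0.26, limma adjusted p = 0.82). Lyl1 shares 4 exonic bases with Nfix.

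Lmo2, the LIM-domain protein that bridges DNA-bound factors of the heptad, was the most abundant of the 10 and the one with the least spread. Lmo2 (chromosome 2, 103957986 to 103981878, plus strand) read 10512, 14111, 10895 and 9409.6 in WT LT-HSC and 11177, 9299 and 13393 in KO LT-HSC. It read 7689, 6686 and 8225 in WT MPP2 and 7823, 9037 and 5964 in KO MPP2. It read 7372, 9806, 10350.3 and 6574 in WT MPP3 and 8384, 9282 and 7487 in KO MPP3. Every MPP2 library lay below every LT-HSC library, and MPP3 overlapped both. The Lmo2 difference in MPP2 minus LT-HSC was -0.57 (SE 0.14, limma adjusted p = 0.0176), a 1.48-fold lower level. This call was lost without WT MPP2 replicate 2 or KO LT-HSC replicate 3, with a limma adjusted p of at most 0.0507. In MPP3 minus LT-HSC it was -0.41 (SE 0.13, limma adjusted p = 0.0681), which passed with DESeq2 and without KO LT-HSC replicate 2, WT MPP3 replicate 3 or KO MPP2 replicate 3.

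**Figure D3:**
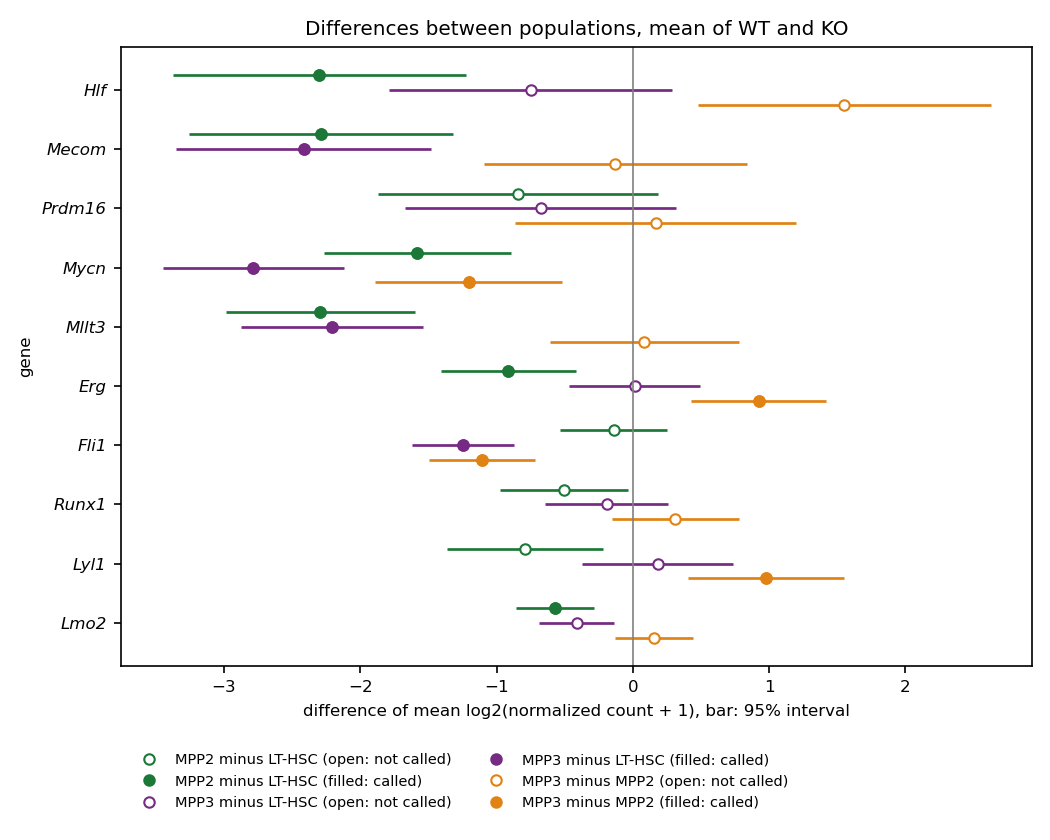
Differences between populations for each gene, as the mean of the WT and KO difference of mean log2(normalized count + 1), with 95% intervals; filled circles were called at a limma adjusted p under 0.05. Mecom, Mycn and Mllt3 lie to the left of 0 for both progenitors against LT-HSC, Hlf, Erg and Lmo2 are called for MPP2 alone, Fli1 for MPP3 alone, and the difference between the progenitors is tested by MPP3 minus MPP2, called for Mycn, Erg, Fli1 and Lyl1.

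The libraries of both populations fell into separate ranges for 3 of the 10 genes in MPP2 against LT-HSC (Mycn, Mllt3 and Lmo2), where 2.6% of all genes were so separated. The count was 4 of 10 in MPP3 against LT-HSC (Mecom, Mycn, Mllt3 and Fli1; 4.66% of all genes) and 1 of 10 in MPP3 against MPP2 (Fli1; 2.41%). Pairs of populations were also compared within a run of library numbers and a genotype, which gave 5 differences per comparison. These use the same libraries as the test, mostly 1 against 1. The share of all genes with 5 of 5 in 1 direction was not computed, so they are given as descriptions. Mllt3, Mecom, Mycn, Hlf and Lmo2 were lower in 5 of 5 such differences in MPP2 minus LT-HSC and in 5 of 5 in MPP3 minus LT-HSC. Erg and Lyl1 were lower in 5 of 5 in MPP2 minus LT-HSC and higher in 5 of 5 in MPP3 minus MPP2. Fli1 was lower in 5 of 5 in MPP3 minus LT-HSC and in MPP3 minus MPP2. Hlf and Lmo2 were higher in 5 of 5 in MPP3 minus MPP2. Prdm16 was lower in 3 of 5 in MPP2 minus LT-HSC, with differences from -2.49 to 1.05, and in 5 of 5 in MPP3 minus LT-HSC, from -1.98 to -0.34.

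The same comparisons were read within each genotype. In WT MPP2 against WT LT-HSC 1 gene was called (Mllt3; 0.833% of all genes), and in WT MPP3 against WT LT-HSC 4 were (Mecom, Mycn, Mllt3 and Fli1; 3.97%). In WT MPP3 against WT MPP2, limma called 0 of the 10 (0.431% of all genes), with 2 at an unadjusted p under 0.05 (Fli1 and Erg), and edgeR and DESeq2 called 0. Within KO, 1 gene was called in MPP2 against LT-HSC (Mllt3; 1.2%), 3 in MPP3 against LT-HSC (Mycn, Mllt3 and Fli1; 1.91%) and 1 in MPP3 against MPP2 (Fli1; 2.79%). Without WT MPP2 replicate 3, the WT MPP2 count was 3, with Hlf and Mecom added to Mllt3, and the KO MPP2 count was likewise 3 for the same genes. With the library labelled WT LT-HSC replicate 4 left out, 23 of the 24 calls over all comparisons held, and the call lost was Mllt3 in KO MPP2.

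Ordered by level per kilobase of exon, Lmo2 and Fli1 held the highest and next highest rank in all 6 groups. In LT-HSC, over both genotypes, Lmo2 stood at 5197 ± 856 normalized counts per kilobase (SD, n = 7), Fli1 at 1188 ± 260 and Mycn at 852 ± 191. Lyl1 followed at 299 ± 102, Hlf at 298 ± 117, Erg at 189 ± 46.8, Runx1 at 175 ± 19.0 and Mllt3 at 155 ± 56.9. Mecom at 92.6 ± 28.8 and Prdm16 at 24.1 ± 11.4 came last. In LT-HSC the ranges of neighbours in this order were separate between Lmo2 and Fli1, between Mycn (683 or more) and Lyl1 (475 or less) and between Mecom (59.4 or more) and Prdm16 (42.8 or less), and all other neighbours overlapped. Mycn held rank 3 in both LT-HSC and both MPP2 groups and rank 7 in both MPP3 groups, where its mean was 137 ± 81.0 per kilobase (SD, n = 7). Ranks from 8 to 10 were held by Mllt3, Mecom and Prdm16 in all 6 groups.

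The spread between libraries of a group differed among the 10 genes. The pooled SD of log2 values within groups was 0.25 for Lmo2, 0.35 for Fli1, 0.42 for Erg and 0.42 for Runx1, and it was 0.50 for Lyl1, 0.63 for Mllt3, 0.64 for Mycn, 0.89 for Mecom, 0.90 for Prdm16 and 1.01 for Hlf. Over all genes tested the median of this SD was 0.67, and it was 0.44 over those averaging 3 or more in log2 CPM, as all 10 do. The last 6 of these genes lay above the median at such levels. The Hlf interval in MPP3 minus LT-HSC, from -1.79 to 0.29 on the log2 scale, includes a fall as large as that of several called genes.

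Related genes were read from 10 lists of known partners, relatives and targets, 77 of which were tested, with counts adjusted over all genes. The lists too were chosen with earlier results of these data known, so their counts are descriptions. In MPP2 against LT-HSC 9 of 77 were called, all lower, where 7.32% of all genes were called. In MPP3 against LT-HSC 18 were called, 14 lower and 4 higher (7.4% of all genes), and in MPP3 against MPP2 22 were, 12 lower and 10 higher (6.88%). The median difference of the 77 was -0.23, -0.16 and 0.10 in these comparisons, beside -0.11, -0.00044 and 0.09 over all genes.

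Both remaining heptad genes fell in MPP3. Gata2, a zinc-finger factor of stem and mast cells, averaged 5059.9 ± 591 in LT-HSC (SD, n = 7), 4885 ± 1809 in MPP2 (n = 6) and 1603 ± 548 in MPP3 (n = 7), with -1.73 in MPP3 minus LT-HSC (limma adjusted p = 4.30e-05) and -1.58 in MPP3 minus MPP2 (limma adjusted p = 0.000449). Tal1, the basic helix-loop-helix partner of the LMO2 complex, averaged 1097 ± 204 in LT-HSC, 999 ± 261 in MPP2 and 590.02 ± 125 in MPP3, with -0.88 in MPP3 minus LT-HSC (limma adjusted p = 0.00355) and -0.74 in MPP3 minus MPP2 (limma adjusted p = 0.0213). Neither was called in MPP2 against LT-HSC. Of the 7 heptad genes, Fli1, Gata2 and Tal1 were therefore called lower in MPP3 than in LT-HSC and MPP2, Erg and Lyl1 were called higher in MPP3 than in MPP2, and Runx1 and Lmo2 were called in neither comparison of MPP3. Of 7 other partners of LMO2, LYL1 and TAL1, 0 were called against LT-HSC in either progenitor and 1, the E-protein gene Tcf4, was called between the progenitors (higher in MPP3, 0.87, limma adjusted p = 0.0125).

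Of 6 tested genes known as targets of FLI1 or RUNX1, 5 were called lower in MPP3 than in LT-HSC and than in MPP2. Gp9, a subunit of a platelet adhesion receptor, averaged 1124 ± 126 in LT-HSC (SD, n = 7), 1047 ± 473 in MPP2 (n = 6) and 108 ± 61.2 in MPP3 (n = 7), a difference of -3.47 in MPP3 minus LT-HSC (limma adjusted p = 1.11e-07). Gp9, Pf4, Itga2b and Gp1ba of this list also count among the megakaryocyte genes above. Of 8 other ETS genes tested, Elk3 was called lower in MPP2 (-1.34, limma adjusted p = 0.00367) and Spi1, which encodes the myeloid factor PU.1, was called higher in MPP3 (1.34, limma adjusted p = 0.00108), and no other was called against LT-HSC.

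Among 8 genes of the MYC network, Myc was higher in MPP3 at 8961 ± 2483 (SD, n = 7) than in LT-HSC at 5021 ± 993 (SD, n = 7; 0.82, limma adjusted p = 0.00723), a direction opposite to that of Mycn in the same comparison. Mxd4, an antagonist of MYC at shared sites, was higher in MPP3 as well (0.75, limma adjusted p = 0.0204), and 0 of the 8 were called in MPP2 against LT-HSC. Of 5 RUNX1 partners and relatives, Runx1t1 alone was called against LT-HSC, at 250.4 ± 101 in LT-HSC (SD, n = 7), 4.49 ± 6.81 in MPP2 (n = 6) and 1.03 ± 2.34 in MPP3 (n = 7). Of 19 other stem-cell regulators, 6 were lower in MPP2 and 6 in MPP3 than in LT-HSC, and 0 were higher in either. Meis1, a homeodomain cofactor of HOX proteins, fell in both (-0.70 and -1.22, limma adjusted p = 0.0139 and 5.69e-05). Of 3 genes, the PAR bZIP relatives Dbp and Tef and their repressor Nfil3, only Nfil3 was called, higher in MPP3 than in LT-HSC (4.48, limma adjusted p = 0.0278). Nfil3 was not called in that comparison within WT or within KO. Among 8 other PRDM genes and CtBP corepressors and 11 partners of MLLT3, 0 were called against LT-HSC.

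In the comparison of Hopx knockout with wild type, none of the 10 genes passed the test. In LT-HSC limma called 0 of 10 (0.00583% of all genes), in MPP2 0 of 10 (0.0117%), in MPP3 0 of 10 (0.00583%), in the mean over populations 0 of 10 (0.0117%), and 0 of 10 differed in their KO effect between populations (0% of all genes). At an unadjusted p under 0.05 the counts were 0, 1, 0, 0 and 0 of the 10, and 456, 1353, 347, 864 and 526 of all genes. With edgeR, with DESeq2 and with the runs or sex as a covariate the count was 0 of 10 in each of the 5 tests. Of the 77 related genes, limma likewise called 0 in each of these tests. In the runs 81 to 88 and 101 to 106, genotype and sex cannot be told apart. For none of the 10 genes did the WT and KO libraries of a population separate without overlap, where 5% of all genes did in LT-HSC, 5.93% in MPP2 and 3.93% in MPP3.

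The intervals of the genotype difference were narrow for some genes and wide for others. For Lmo2 the mean over populations was 0.00 with a 95% interval of -0.23 to 0.23, and for Fli1 it was 0.13 with -0.18 to 0.44. For Hlf it was -0.17 with -1.04 to 0.70, for Mecom -0.04 with -0.83 to 0.74 and for Prdm16 -0.30 with -1.14 to 0.53. The direction for Hlf and Mecom turned with the runs as a covariate, to 0.45 and 0.42 (limma adjusted p = 0.934 for both), and within runs both were higher in KO in 2 of 2 in LT-HSC and in MPP3 and in 1 of 2 in MPP2. For Mycn it was -0.20 with -0.75 to 0.36 and for Mllt3 -0.16 with -0.72 to 0.39. A miss of the threshold does not show that the genotypes had the same level, and for Hlf, Mecom and Prdm16 the interval includes larger changes than for Lmo2 and Fli1.

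Erg and Runx1 had the smallest p over the populations. Erg averaged 749 ± 128 (SD, n = 4) in WT LT-HSC and 528 ± 111 (SD, n = 3) in KO LT-HSC, and its mean KO minus WT difference was -0.39 (SE 0.19, limma adjusted p = 0.857), with an interval of -0.79 to 0.01. The difference was negative in each population, at -0.51, -0.47 and -0.20, and the ranges of the genotypes overlapped in each. In LT-HSC the overlap came from WT LT-HSC replicate 4 alone, at 579, the library with 0 reads of Hopx. The other WT LT-HSC libraries read 763 or more for Erg and the KO LT-HSC libraries 634 or less. Within runs that held both genotypes, Erg was lower in KO in 2 of 2 runs in LT-HSC and in 1 of 2 in MPP2 and in MPP3. Only the run 115 to 120 held both genotypes in the same sex, male. There Erg was lower in KO in LT-HSC (634 against 766). It was higher in KO in MPP2 (237 against 200.1) and in MPP3 (594 against 520.5). Runx1 was lower in KO in 2 of 2 runs in each population, with differences from -0.26 to -0.011. Runx1 in MPP2 was -0.71 (SE 0.32, limma adjusted p = 0.618), with an unadjusted limma p of 0.0415, and without KO MPP2 replicate 3 it was -0.15. Hlf in MPP2 was -0.76 (SE 0.75, limma adjusted p = 0.868) and Mecom -0.70 (SE 0.67, limma adjusted p = 0.863), and without WT MPP2 replicate 3 these turned to 0.24 and 0.083. Prdm16 in LT-HSC was -0.79 (SE 0.67, limma adjusted p = 1).

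**Figure D4:**
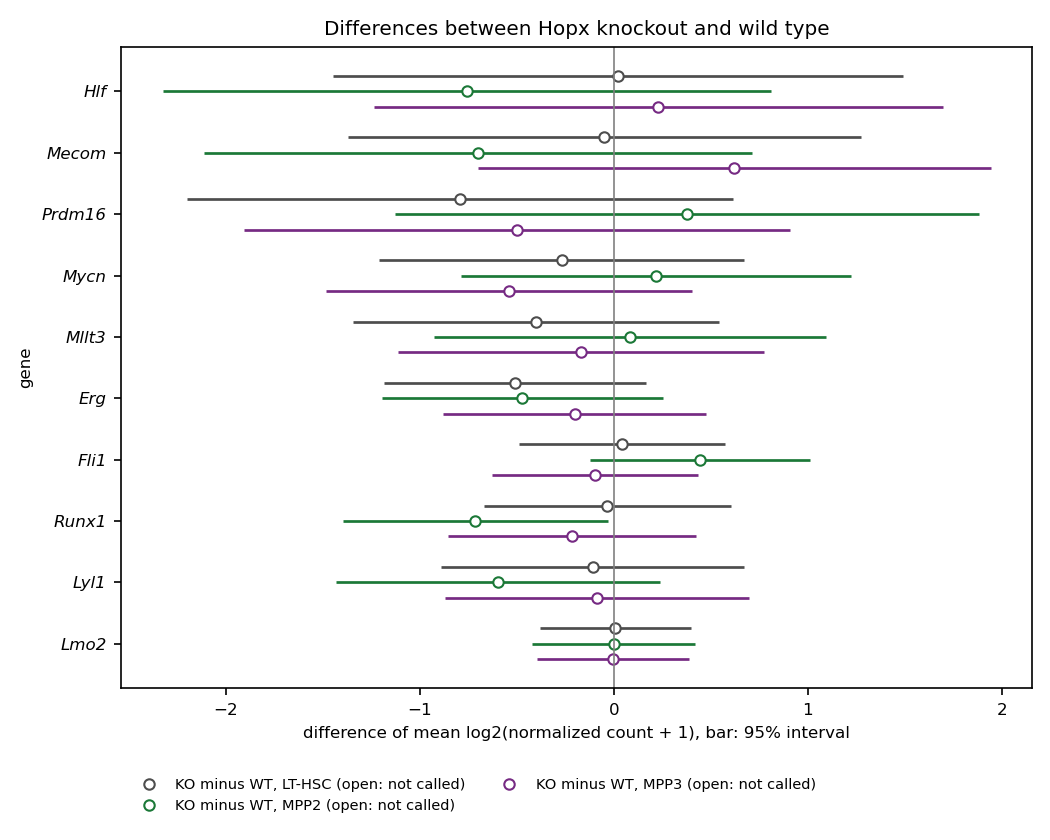
KO minus WT differences of mean log2(normalized count + 1) for each gene in LT-HSC, MPP2 and MPP3, with 95% intervals; open circles were not called at a limma adjusted p under 0.05. The 3 Lmo2 intervals are the narrowest, those of Hlf, Mecom and Prdm16 are the widest, and no gene was called.

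Genes whose pattern over the 20 libraries was most like that of each gene were found by Pearson correlation of log2 values over the 10057 genes that averaged 3 or more in log2 CPM. These correlations share libraries, scaling and the differences between populations, and they are given as descriptions. For Mycn the closest included Meis1 (0.95) and Pdzk1ip1 (0.94). For Fli1 they included Pttg1ip (0.94) and Rab11a (0.94). For Hlf they were Ldhb (0.96), Plxna4os1 (0.94) and Tgtp1 (0.93). For Mecom they included Ctla2a (0.92) and Coq8a (0.91). Among the remaining genes the closest were Vps13d for Runx1 (0.94), Calcoco1 for Lyl1 (0.90), Tmem176a for Erg (0.88), Batf2 for Lmo2 (0.86), Art4 for Mllt3 (0.86) and Mvp for Prdm16 (0.85). Among the 10 themselves, Hlf and Mecom (0.79), Mycn and Fli1 (0.78), Hlf and Erg (0.78), Mecom and Mllt3 (0.78), Mycn and Mllt3 (0.76) and Mecom and Mycn (0.75) had the highest values, and Fli1 and Lyl1 (-0.31) and Erg and Fli1 (-0.13) the lowest.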

How the data were processed

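RNA was sequenced from 20 sorted-cell libraries. The deposited table holds, per gene and library, a signal: gene counts divided by 1 size factor per library. Per the submitters' processing notes the authors used TopHat2 2.1.1, GRCm38, HTSeq 0.11.2 and DESeq, with no version stated. Whole reads were recovered by dividing by the value of 1 read, and 100% of values came out whole within 1e-06. That value lies near 1 for WT MPP2 replicate 2 and for WT MPP3 replicate 1. The 5 summary rows of the counter were left out; the row of reads without a unique position held 52.6% to 57.8% of the reads of a library. Depth was 11163345 to 15189909 reads in genes per library. Of 45706 gene identifiers, 45143 matched a GENCODE M21 symbol.

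Values were tested as log2(value + 1) with limma 3.58.1 (intensity trend, robust) in R 4.3.3, with 1 mean for each of 6 groups over all 20 libraries, on the 17160 genes kept by the expression filter of edgeR 4.0.16, with Benjamini-Hochberg adjustment and a threshold of 0.05. The fits were tested on simulated data. All 10 genes were named, with up to 3 genes of each related list, those of smallest p; a few genes that the rules select are not reported here. The genes and lists were chosen with earlier results of these data known. Groups come from the labels, and replicate numbers are in accession order. Alternatives were a pseudocount of 16, no filter, edgeR and DESeq2 1.42.0 on the recovered reads, TMM scaling, the runs or sex as a covariate, and each library left out; leaving out the run 52 to 54, or WT LT-HSC replicate 4 with WT MPP2 replicate 3, was added after seeing the data.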

Additional observations from a re-analysis of the deposited data

Results flagged for a closer look

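In 20 sets of 4 libraries, 2 held a library whose gap to its nearest neighbour, as a share of the whole range, passed Dixon's 95% critical value for 4 samples; chance gives about 1 in 20. Hlf read 2833 in WT MPP3 replicate 2, with a gap share of 0.926, where the other WT MPP3 libraries read 823, 740.4 and 662. Prdm16 read 528 in WT MPP3 replicate 3, with a gap share of 0.923, where the others read 71.6, 107 and 106. These 2 libraries also had the high mature neutrophil sums in their group, 24381 and 18752 against 209 and 55.9 in the others, and lower granulocyte precursor sums, 18145 and 23398 against 134159.9 and 118001. Nearly all of Ngp (up to 4482), Camp (533) and Ltf (2552) in WT MPP3 came from a single library each. The 2 libraries therefore differed in these neutrophil genes. The part of these sums in the Hlf and Prdm16 values was not tested.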

How the results depend on the processing

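No paired analysis was possible because the labels carry no replicate numbers and name no animal; in its place the runs of library numbers entered as a covariate and the populations were compared within runs. Over 29 alternatives, 14 of 24 calls for the 10 genes held throughout, and 101 of 116 results that were not called were never called. Called genes of the 10 in WT MPP2 against WT LT-HSC numbered 1, and 2 with a pseudocount of 16, DESeq2 or sex, 4 with the runs and 3 without the run 52 to 54. In KO MPP2 against KO LT-HSC they numbered 1, and 0 with no filter or edgeR, 3 with DESeq2 or without the run 52 to 54, 4 with the runs, and 2 with sex or without both WT LT-HSC replicate 4 and WT MPP2 replicate 3. In KO MPP3 against KO MPP2 they numbered 1, 4 with DESeq2 or the runs, and 2 with sex or without the run 52 to 54. With 1 library left out the counts ran from 0 to 3 in WT MPP2 and in KO MPP2 against LT-HSC, from 1 to 4 in KO MPP3 against KO LT-HSC, from 0 to 2 in KO MPP3 against KO MPP2 and from 2 to 5 in MPP3 against MPP2 over both genotypes.

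Differences that changed sign were all uncalled. Those that moved by more than their SE in the main fit are given here, and smaller changes of sign about 0 are not listed. KO minus WT over the populations became 0.45 for Hlf and 0.42 for Mecom with the runs, and 0.43 for Hlf and 0.43 for Mecom without the run 52 to 54. KO minus WT in MPP2 became 0.24 for Hlf and 0.083 for Mecom without WT MPP2 replicate 3, alone, with its run or with WT LT-HSC replicate 4, and -0.38 for Mycn without KO MPP2 replicate 1. WT MPP3 minus WT MPP2 became -0.26 for Mllt3 without WT MPP2 replicate 1, and KO MPP3 minus KO MPP2 became -0.0073 for Runx1 without KO MPP2 replicate 3. With 1 library left out at a time, these 5 differences ran from -1.67 to 0.24 for Hlf, from -1.62 to 0.083 for Mecom and from -0.38 to 0.71 for Mycn in KO minus WT MPP2, from -0.26 to 0.59 for Mllt3 and from -0.0073 to 0.94 for Runx1. The cause was not tested. Over all genes, the number called ran from 717 to 1908 in MPP2 against LT-HSC (1256 as reported), from 675 to 1564 in MPP3 against MPP2 (1180 as reported) and from 0 to 350 in KO against WT in MPP2 (2 as reported), where 350 came without KO MPP2 replicate 2. Within WT it ran from 35 to 434 in MPP2 (143 as reported) and from 429 to 896 in MPP3 (681 as reported) against LT-HSC, and from 9 to 417 between the progenitors (74 as reported). Within KO it ran from 5 to 874 (206 as reported), from 161 to 595 (327 as reported) and from 107 to 1178 (478 as reported) in the same order.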
